A study of Mus musculus with 6 samples.

Results

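The 10 genes described here, Lgr5, Ascl2, Smoc2, Olfm4, Axin2, Sox9, Rnf43, Znrf3, Ephb2 and Ephb3, mark the stem cells at the base of the intestinal crypt or are targets of Wnt signalling there. They were chosen by name with earlier results of these data known, and all 10 were among the 23282 genes of an RNA-seq table of mouse colon. The study asked which colon genes respond to activation of the pregnane X receptor (PXR), a nuclear receptor that senses drugs and other foreign compounds. Wild-type C57BL/6J mice 8 weeks old were given PCN (pregnenolone-16α-carbonitrile, a synthetic steroid that activates rodent PXR) at 40 mg/kg by intraperitoneal injection, 3 times at intervals of 8 h, with the colon collected for RNA 8 h later. Control mice of the same strain, age and genotype are labelled as vehicle, the solvent being DMSO in corn oil. There were 3 libraries per group, numbered 3, 5 and 6 for vehicle and 4, 5 and 6 for PCN. The labels do not say that each library came from a separate mouse or which stretch of colon was sampled, so the p-values below measure the spread between these libraries.

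Crypts are renewed by stem cells that depend on Wnt proteins from neighbouring cells. Wnt binding to Frizzled receptors stabilises β-catenin, which enters the nucleus and switches on target genes with TCF factors. R-spondins amplify this signal: they bind LGR5 and its relatives and clear away RNF43 and ZNRF3, a pair of ubiquitin ligases that remove Frizzled from the cell surface. ASCL2 is a transcription factor that sets the stem cell programme, AXIN2 belongs to the complex that destroys β-catenin and is induced as negative feedback, and EPHB2 and EPHB3 are receptors that keep cells sorted along the crypt.

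No member passed the test for a difference between PCN and vehicle. Of the 10, 9 had enough counts to be tested, and 8 of these 9 had a higher fitted level in PCN, although the sign for Znrf3 depended on the scaling. Over all genes tested, 51.6% had a positive fold change. Ephb2, Sox9 and Rnf43 had all PCN libraries above all vehicle libraries, Ascl2 and Ephb3 had the largest fold changes with wide errors, the fold change of Lgr5 rested on 1 low vehicle library, and Smoc2 was the only tested member with a lower fitted level. Because the RNA came from whole tissue, more or fewer crypt cells and more or less RNA per cell cannot be told apart.

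The libraries held 21924026 to 25422856 counts, with 20538 to 20963 genes detected. All 16586 genes that passed a filter on low counts were tested together with edgeR's quasi-likelihood test, and p-values were adjusted over all of them. At an adjusted p under 0.05, edgeR called 0 of 9 members and 6 of all genes, 0.0362% of those tested. DESeq2, a second test on the same counts, called 0 of 9 members, beside 1.03% of all genes higher and 0.259% lower. Before adjustment, 3 members (Ephb2, Sox9 and Rnf43) were higher with an edgeR p under 0.05 and 0 were lower, against a background of 6.25% of genes higher and 3.73% lower. The same 3 were the members whose groups did not overlap, all higher in PCN, where 8.69% of all genes were higher without overlap and 7.39% lower. The median log2 fold change was 0.36 over the 9 members and 0.01 over all genes tested. Since the members were chosen with earlier results of these data known, these shares and medians are no test of the list.

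Per unit of gene length, Sox9 had the highest level of the 10 and Olfm4 the lowest. Levels between genes are given as the authors' FPKM, which divides counts by gene length and library size. Sox9, a transcription factor of the crypt base, averaged 16.5 ± 4.58 FPKM (SD, n = 3) in vehicle. It was followed by Ephb2 at 6.51 FPKM, Rnf43 at 6.40, Smoc2 at 6.00, Axin2 at 4.46, Ephb3 at 4.45, Ascl2 at 2.10, Znrf3 at 1.95, Lgr5 at 1.01 and Olfm4 at 0.126. Among neighbours in this order, the vehicle libraries separated Sox9 from Ephb2, Znrf3 from Lgr5 and Lgr5 from Olfm4, and every other pair of neighbours overlapped. In PCN the order was the same at both ends, but its middle ran Ephb3 at 6.66 FPKM, Axin2 at 5.40 and Smoc2 at 5.13.

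**Figure D1:**
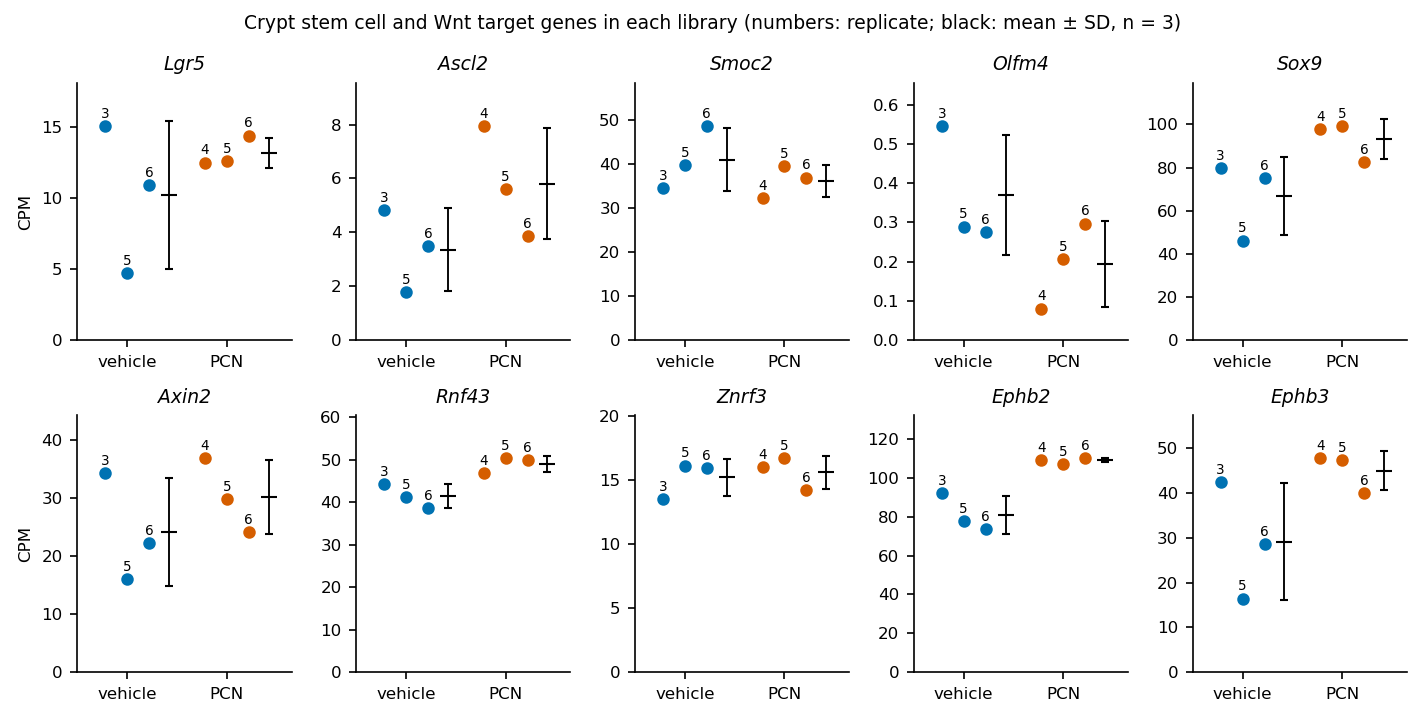
Level of each of the 10 genes in each library, as CPM (counts scaled to a common library size, vertical axis, from 0 in each panel), for 3 vehicle (blue) and 3 PCN (orange) libraries. The numbers are replicate numbers, and the black bars give the mean ± SD. All PCN points lie above all vehicle points for Ephb2, Sox9 and Rnf43, and vehicle replicate 5 is the lowest of the 6 for Lgr5, Ascl2, Axin2, Sox9 and Ephb3.

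The promoters of the Eph receptors, of Ascl2 and of Axin2 are shown because these members lead the list by p-value, by fold change or as the standard readout of Wnt signalling, and because TCF factors and PXR act through short DNA motifs. Windows from 250 bases before to 50 after a start site were found in RefSeq (GRCm38.p6) for 6 of the 10 members: Ephb2, Ephb3, Ascl2, Axin2, Olfm4 and Rnf43, the last with 2. The windows below lie at chr4:136835963-136836262 (minus strand) for Ephb2, chr16:21204545-21204844 (plus) for Ephb3, chr7:142969215-142969514 (minus) for Ascl2 and chr11:108920099-108920398 (plus) for Axin2. They are written 5′ to 3′ on the strand of the gene. Capitals mark the E-box letters CAGCTG and CACCTG (read as CAGGTG on the other strand), the kind of motif that ASCL2-like factors bind, and the GC-box letters GGGCGG on the printed strand.
Ephb2: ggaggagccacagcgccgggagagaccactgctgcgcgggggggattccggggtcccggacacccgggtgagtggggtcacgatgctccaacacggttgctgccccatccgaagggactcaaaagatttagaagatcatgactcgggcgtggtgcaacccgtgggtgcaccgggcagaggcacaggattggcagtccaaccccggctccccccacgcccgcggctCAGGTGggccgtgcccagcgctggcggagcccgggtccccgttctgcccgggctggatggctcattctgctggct
Ephb3: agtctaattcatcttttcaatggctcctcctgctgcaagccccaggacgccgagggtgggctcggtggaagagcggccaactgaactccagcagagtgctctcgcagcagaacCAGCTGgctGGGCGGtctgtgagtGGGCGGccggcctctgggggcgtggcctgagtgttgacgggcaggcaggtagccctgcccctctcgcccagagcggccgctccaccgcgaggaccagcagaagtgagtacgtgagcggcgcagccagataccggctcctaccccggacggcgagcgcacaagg
Ascl2: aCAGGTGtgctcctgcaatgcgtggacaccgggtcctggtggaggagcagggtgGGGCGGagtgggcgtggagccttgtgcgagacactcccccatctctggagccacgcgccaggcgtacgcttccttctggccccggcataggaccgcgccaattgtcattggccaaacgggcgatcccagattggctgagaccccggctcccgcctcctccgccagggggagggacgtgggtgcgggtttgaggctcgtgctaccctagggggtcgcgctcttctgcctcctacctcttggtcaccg
Axin2: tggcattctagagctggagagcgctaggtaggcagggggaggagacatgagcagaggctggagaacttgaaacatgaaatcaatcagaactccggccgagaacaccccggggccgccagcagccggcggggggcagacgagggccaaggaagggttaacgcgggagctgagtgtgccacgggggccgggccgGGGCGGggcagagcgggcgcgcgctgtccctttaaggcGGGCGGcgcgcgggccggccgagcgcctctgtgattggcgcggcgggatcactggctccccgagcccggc

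All 4 windows were rich in G and C, with 68.7% for Ephb2, 66.7% for Ephb3, 67.0% for Ascl2 and 70.0% for Axin2, against a median of 52.7% over 32851 mouse windows. They held 24, 23, 23 and 31 CpG pairs, where the median window had 7. Letters were searched on both strands, and none of the motifs contains another. The TCF-type letters CTTTGA and CTTTGT were in 0 of the 7 member windows and in 16.0% and 18.7% of all windows. CACCTG was in those of Ephb2 and Ascl2 (20.2% of all windows), CAGCTG in that of Ephb3 (16.3%), and GGGCGG in those of Ephb3, Ascl2 and Axin2 (35.7%). Of the nuclear receptor half-sites, AGGTCA was in 0 member windows (16.3% of all) and AGTTCA was in those of Ephb3 and the second window of Rnf43 (14.0% of all). A match describes the letters in the window, and its absence says nothing of the factor.

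Ephb2 showed the clearest separation of the 10. The gene lies on the minus strand of chromosome 4, from 136647539 to 136835988 in GRCm38, and its receptor is highest at the crypt base, where it meets ephrin-B ligands from the cells above. Vehicle replicates 3, 5 and 6 measured 91.9, 77.6 and 73.4 CPM (counts divided by the library size after TMM scaling) and PCN replicates 4, 5 and 6 measured 109, 107 and 110. The PCN libraries lay within a few CPM of each other and all above the highest vehicle library. Mean levels were 81.0 ± 9.73 CPM in vehicle and 109 ± 1.19 in PCN (SD, n = 3 each). The log2 fold change was 0.43 ± 0.10 (SE), with a 95% interval from 0.20 to 0.65. Its edgeR p of 0.00252, read with the 16586 genes tested, became an adjusted p of 0.270, and DESeq2 gave an adjusted p of 0.0572. The 2-sided exact permutation test gave 0.1, the smallest p that the 20 assignments of these libraries allow. Leaving out vehicle replicate 3, the highest of its group, DESeq2 called Ephb2 higher with an adjusted p of 0.000425. With any other library left out it did not. The fit without vehicle replicate 3, added after seeing the data, called 317 of all genes higher and 89 lower, the most of any library left out.

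Ephb3, at 21204755 to 21223305 on the plus strand of chromosome 16, differed more but less evenly. Vehicle replicates 3, 5 and 6 measured 42.3, 16.4 and 28.6 CPM, and PCN replicates 4, 5 and 6 measured 47.7, 47.2 and 39.9. The lowest PCN library was below vehicle replicate 3, so the groups overlapped, and vehicle replicate 5 held 46.2% of the mean of the other vehicle libraries. Its log2 fold change was 0.63 ± 0.29 (SE, 95% interval -0.04 to 1.29, adjusted p = 0.506 by edgeR, exact permutation p = 0.2). Leaving out vehicle replicate 5 gave 0.34. Leaving out vehicle replicate 3 gave 1.00, and there DESeq2, in the same added fit, called it higher with an adjusted p of 0.00679. The count of Ephb3 per count of Ephb2 in the same library was 0.460, 0.211 and 0.390 in vehicle and 0.438, 0.440 and 0.363 in PCN, lowest in vehicle replicate 5 and with overlapping groups (exact permutation p = 0.7).

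Their partners on the other side of the contact differed little. Efnb1, an ephrin-B ligand of the upper crypt, averaged 135 ± 22.0 CPM in vehicle and 135 ± 7.15 in PCN. For Efnb2, another such ligand, the log2 fold change was 0.05, with an interval from -0.13 to 0.23. Of 11 other ephrin and Eph genes tested, 10 had a positive fold change and 0 an unadjusted p under 0.05, with a median of 0.09 that was 0.01 without vehicle replicate 5. The 3 with the smallest p were Epha4 at a log2 fold change of 0.22, Efna4 at 0.20 and Ephb4 at 0.14.

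Sox9, whose factor is needed for Paneth cells of the small intestine and marks crypt base cells, is a gene of the plus strand of chromosome 11, at 112782224 to 112787760. It measured 79.6, 46.1 and 75.0 CPM in vehicle replicates 3, 5 and 6. Levels in PCN replicates 4, 5 and 6 were 97.8, 99.3 and 82.6 CPM. All 3 PCN libraries exceeded the vehicle libraries, but PCN replicate 6 was above vehicle replicate 3 by a small step only, and vehicle replicate 5 stood far below both. Means were 66.9 ± 18.2 and 93.2 ± 9.24 CPM (SD, n = 3). The log2 fold change of 0.48 ± 0.19 (SE, 95% interval 0.04 to 0.92) had an unadjusted p of 0.0370 and an adjusted p of 0.475 in edgeR. Without vehicle replicate 5 the fold change was 0.27.

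Rnf43 and Znrf3, the ligases that remove Frizzled and are themselves Wnt targets, were compared as a pair. Rnf43 (chromosome 11, plus strand, 87662722 to 87735539) measured 44.3, 41.2 and 38.6 CPM in vehicle and 46.9, 50.4 and 49.9 in PCN. The groups did not overlap, and the spread within each was small. Its log2 fold change was 0.24 ± 0.09 (SE, 95% interval 0.03 to 0.46, unadjusted p = 0.0291 and adjusted p = 0.465 by edgeR), and the ratio of means was 1.18. Znrf3 (chromosome 11, minus strand, 5276324 to 5444847) measured 13.5, 16.1 and 15.9 CPM in vehicle and 16.0, 16.7 and 14.2 in PCN. Here the groups overlapped throughout, with a log2 fold change of 0.04 and an interval from -0.28 to 0.37. Its sign depended on the scaling: it was 0.04 with TMM and -0.01 when libraries were scaled to epithelial genes. Counts of Rnf43 per count of Znrf3 ran from 2.43 to 3.28 in vehicle and from 2.93 to 3.51 in PCN (exact permutation p = 0.3), so a different response of these ligases was not shown.

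Axin2 (chromosome 11, plus strand, 108920349 to 108950783) is the most widely used readout of Wnt activity. Vehicle replicates 3, 5 and 6 measured 34.3, 16.0 and 22.3 CPM, and PCN replicates 4, 5 and 6 measured 36.9, 29.8 and 24.1. The groups overlapped, since vehicle replicate 3 was above PCN replicates 5 and 6. With a log2 fold change of 0.32 ± 0.27 (SE, 95% interval -0.30 to 0.94, adjusted p = 0.706 by edgeR), the difference was about the size of its error, and without vehicle replicate 5 it was 0.10. Axin2 shares exon bases with an antisense gene, Gm11670, and whether strand was used in counting is not given in the sources used here.

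Lgr5, the R-spondin receptor that defines the crypt base stem cell, was detected in every library. The gene is on the minus strand of chromosome 10, at 115450311 to 115587780. Vehicle replicates 3, 5 and 6 gave 332, 115 and 277 counts, against 311, 306 and 339 for PCN replicates 4, 5 and 6. Scaled, these were 15.1, 4.74 and 10.9 CPM against 12.5, 12.6 and 14.4. The highest and the lowest library were both vehicle, and the PCN libraries lay between them. Means were 10.2 ± 5.21 and 13.2 ± 1.04 CPM (SD, n = 3). The log2 fold change was 0.36 ± 0.36 (SE, 95% interval -0.45 to 1.18, adjusted p = 0.749 by edgeR, exact permutation p = 0.5), and it was 0.02 without vehicle replicate 5. At its lowest count of 115, counting error alone is 9.33%, well below the gap between vehicle libraries.

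Ascl2 (chromosome 7, minus strand, 142966829 to 142969264), the transcription factor of the stem cell programme, had the largest fold change of the tested members and a low level. Levels were 4.82, 1.77 and 3.49 CPM in the vehicle libraries (replicates 3, 5 and 6) and 7.95, 5.61 and 3.85 in the PCN libraries (replicates 4, 5 and 6). The PCN libraries spread widely, and the lowest of them, replicate 6, was below vehicle replicate 3. The log2 fold change was 0.79 ± 0.40 (SE, 95% interval -0.14 to 1.72, adjusted p = 0.536 by edgeR). Without vehicle replicate 5 it was 0.49.

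Smoc2 and Olfm4 were the members with a lower mean in PCN. Smoc2 (chromosome 17, plus strand, 14279506 to 14404790) encodes a secreted matrix protein of crypt base cells that stromal cells make as well. It measured 34.6, 39.7 and 48.7 CPM in vehicle and 32.3, 39.5 and 36.9 in PCN. The groups overlapped, and the log2 fold change was -0.18 ± 0.14 (SE, 95% interval -0.51 to 0.15, adjusted p = 0.693 by edgeR).

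Olfm4, at 79984081 to 80023139 on the plus strand of chromosome 14, is a stem cell marker of the mouse small intestine that is little expressed in mouse colon. It gave 12, 7 and 7 counts in vehicle and 2, 5 and 7 in PCN, too few to pass the filter. The totals were 26 and 14 counts, and the PCN over vehicle ratio of 0.531 had a 95% interval for counting error alone from 0.256 to 1.06. No difference was detected at this depth, and fitted without the filter the log2 fold change was -0.92 ± 0.73 (SE, adjusted p = 0.706 by edgeR). Part of its exons overlap those of Gm6999 on the same strand, and how reads in the overlap were counted is not given in the sources used here.

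**Figure D2:**
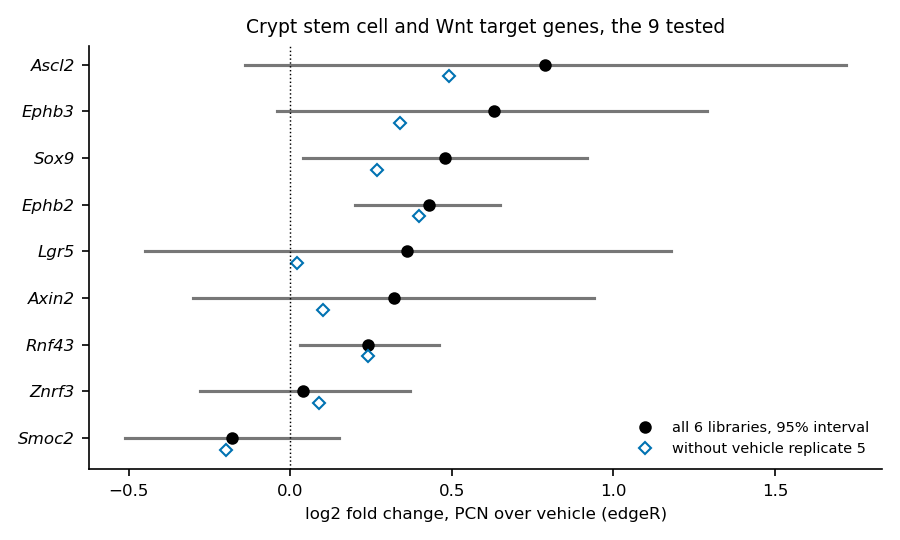
Log2 fold change of PCN over vehicle from edgeR for the 9 members tested (horizontal axis), with 95% intervals from all 6 libraries (black circles, grey lines) and the value without vehicle replicate 5 (open blue diamonds). The intervals of Ephb2, Sox9 and Rnf43 lie above 0, and Lgr5 moves from 0.36 to 0.02 when that library is left out.

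The intervals set limits on what these libraries can show. For 6 of the 9 tested members the upper end lay below a log2 fold change of 1. Those of Lgr5, Ascl2 and Ephb3 reached past it, to 1.18, 1.72 and 1.29.

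Vehicle replicate 5 stood apart from the other vehicle libraries in 5 of the members. In that library Lgr5 was at 36.5% of the mean of vehicle replicates 3 and 6, Ascl2 at 42.7%, Ephb3 at 46.2%, Axin2 at 56.7% and Sox9 at 59.6%. Ephb2 (93.9%), Smoc2 (95.3%), Rnf43 (99.4%) and Znrf3 (110%) were close to the other 2 libraries there. The first 5 were at their lowest of all 6 libraries in vehicle replicate 5, where 25.6% of all genes tested were at their lowest. This also held for 13 of 18 other Wnt target genes, 11 of 21 other crypt base genes and 8 of 9 Notch pathway genes. Of ephrin and Eph genes it held for 8 of 11, and of secretory and goblet cell genes for 7 of 12. For Wnt ligands and R-spondins it was 1 of 9, for receptors 4 of 15, for secreted inhibitors 4 of 12 and for the β-catenin complex 2 of 18. The median log2 fold change of the 9 members was 0.24 without this library. Without vehicle replicate 3 it was 0.62, and that is the vehicle library in which Lgr5, Ascl2, Axin2, Sox9, Ephb2, Ephb3 and Rnf43 were highest.

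Genes that mark position along the colon and other cell types also differed between libraries. The mean centered log2 level of 3 posterior Hox genes (Hoxa13, Hoxb13 and Hoxd13), which are higher towards the distal colon, was 1.15 in vehicle replicate 5 and 1.14 in PCN replicate 4, and from -1.02 to -0.22 in the other 4. The median centered log2 level of the tested members was -0.71 in the first of these libraries and 0.22 in the second. It was 0.20 in PCN replicate 5, where the level of these 3 Hox genes was -0.35. Over the 6 posterior Hox genes tested, the median centered log2 level was 0.13 in that library and 0.06 in vehicle replicate 6. It was 0.39 in vehicle replicate 5, 0.43 in PCN replicate 4, -0.31 in vehicle replicate 3 and -0.22 in PCN replicate 6. With the level of the 3 Hox genes as a covariate, the members' median log2 fold change was 0.42 and 0 were called. Among immune markers, all 7 myeloid genes and all 9 T, B and plasma cell genes had positive fold changes, and no gene of either list was at 0 in any library. Their summed levels were 113 to 270 and 244 to 552 CPM in vehicle, lowest in replicate 5, and 226 to 318 and 681 to 1302 CPM in PCN. For the T, B and plasma cell genes the median log2 fold change was 0.91, but 0.15 without PCN replicate 5. Smooth muscle genes (7 of 7 positive, none at 0) summed to 1177 to 1986 CPM in vehicle and 1057 to 3858 in PCN, and fibroblast and niche genes (11 of 13 positive, none at 0) to 1488 to 1922 and 1782 to 2927. Other lists lay lower in PCN or differed little: small intestine genes had 2 of 10 positive (222 to 424 CPM in vehicle, 256 to 360 in PCN, with Apoa4 and Defa24 at 0 in some libraries), enteric neuron and glia genes 1 of 8 (87.5 to 133 and 71.3 to 123 CPM, none at 0) and endothelial genes 3 of 5 (128 to 160 and 137 to 158 CPM, none at 0). The part of position or of other cells in the members' levels was not tested.

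Relative to the epithelium the members' differences were of similar size. Epithelial genes such as Epcam and Cdh1 (10 genes, 5 with a positive fold change, median 0.02) served as the reference within each library. The log2 ratio to their summed counts was higher in PCN by 0.79 for Ascl2, 0.68 for Ephb3, 0.46 for Sox9, 0.46 for Lgr5, 0.38 for Ephb2, 0.32 for Axin2 and 0.20 for Rnf43. For Znrf3 and Smoc2 the difference was -0.01 and -0.22. On this ratio Sox9, Ephb2 and Ephb3 did not overlap between groups, all higher in PCN (exact permutation p = 0.1 each), beside 5.14% of all genes higher without overlap and 4.57% lower. Rnf43 did overlap (p = 0.4, exact permutation).

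Genes were also ranked by how closely they followed Lgr5 over the 6 libraries. The nearest share its dip in vehicle replicate 5 through this selection, so the dip is no separate result. Among the 10290 genes averaging at least 10 CPM, likeness was measured as the root mean square difference in log2 CPM centered on each gene's mean. The 5 nearest were Glipr2 (0.15), Lfng (0.16), Tgfbi (0.17), Stab1 (0.17) and Uros (0.18). Glipr2 measured 24.3, 10.1 and 17.6 CPM in vehicle and 21.1, 21.1 and 22.6 in PCN. Lfng, which modifies Notch receptors, measured 26.8, 10.2 and 19.4 CPM in vehicle and 18.4, 21.5 and 25.3 in PCN. For Tgfbi the levels were 134, 59.7 and 104 CPM in vehicle and 123, 131 and 130 in PCN. For Stab1 they were 63.5, 29.3 and 59.3 against 63.8, 71.3 and 74.0, and for Uros 17.7, 6.10 and 13.1 against 16.7, 13.1 and 13.6. Of the members, Ephb3 ranked 18 by this measure, Sox9 96, Axin2 180, Ephb2 1075, Rnf43 1935, Znrf3 6655 and Smoc2 7528. These are descriptions over 6 libraries that share 1 low library. Myeloid genes also had their lowest median centered log2 level in vehicle replicate 5, at -0.95.

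**Figure D3:**
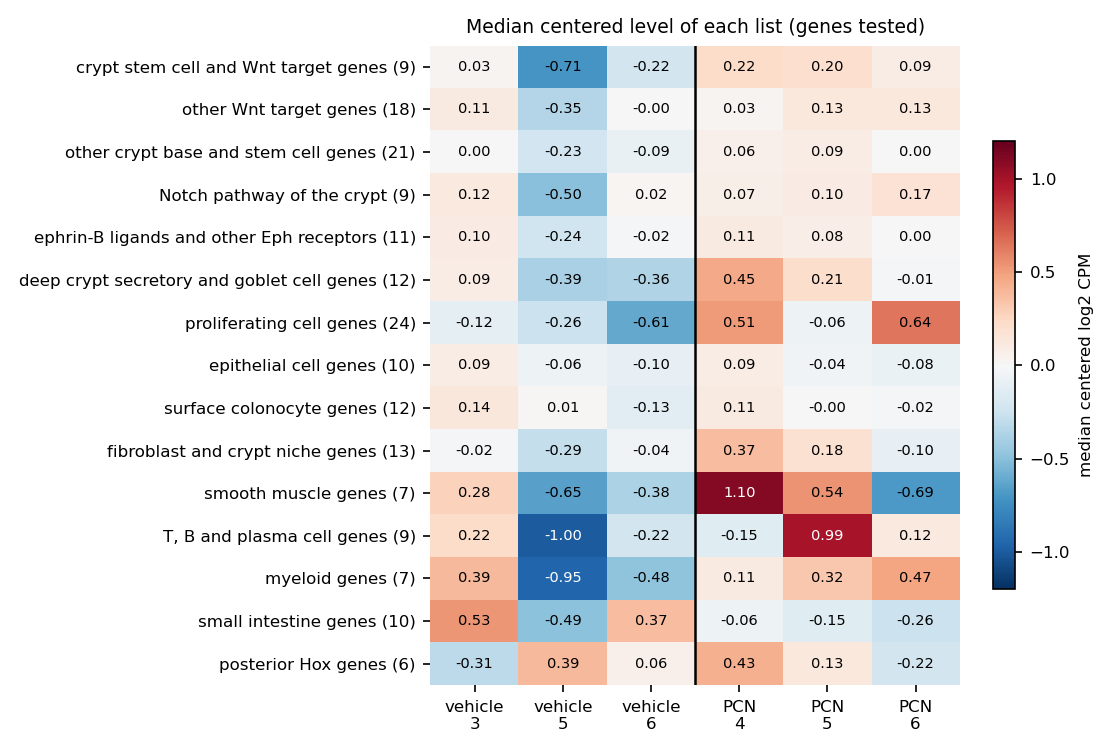
Median centered log2 CPM of the tested genes of each list (rows, number of genes in brackets) in each library (columns, vehicle left and PCN right of the line). Red is above and blue below each gene's mean over the libraries. The crypt stem cell and Wnt target genes are lowest in vehicle replicate 5 at -0.71. So are the other Wnt target, other crypt base, Notch, ephrin and Eph, secretory and immune lists, and some others. The proliferating cell genes are lowest in vehicle replicate 6.

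The rest of the Wnt pathway gave few differences. Of 18 other Wnt target genes tested, 12 had a positive fold change, with a median of 0.17 that was 0.03 without vehicle replicate 5. By edgeR 3 had an unadjusted p under 0.05, and none passed after adjustment. Ccnd1, which encodes cyclin D1, was the only 1 called by DESeq2. It measured 71.3, 38.2 and 46.5 CPM in vehicle and 102, 84.8 and 83.8 in PCN, a log2 fold change of 0.79 ± 0.21 (SE) with an adjusted p of 0.0342 by DESeq2 and 0.326 by edgeR. Every PCN library exceeded every vehicle library, but the DESeq2 call held in 1 of the 6 fits that left out a library, the one without vehicle replicate 3. Cd44, a surface glycoprotein of the crypt base, also did not overlap between groups (90.1 ± 15.2 and 115 ± 3.89 CPM, adjusted p = 0.423 by edgeR and 0.295 by DESeq2). Classical targets such as Myc (0.36), Tcf7 (0.24) and Nkd1 (0.09) and the LGR5 relative Lgr4 (-0.04) had log2 fold changes with intervals that include 0. Notum, a secreted Wnt inactivator, was near the floor at 0.208 ± 0.106 and 0.206 ± 0.108 CPM and was not tested.

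Ligands, receptors and the core of the pathway were likewise without a call from either tool. Of 18 Wnt and R-spondin genes 9 could be tested, 4 with a positive fold change, and their median of -0.11 changed sign with 1 library left out (0.09 without vehicle replicate 6 and 0.07 without PCN replicate 6). Rspo3, a main R-spondin of the gut stroma and so a ligand of LGR5, measured 8.82, 6.18 and 8.63 CPM in vehicle and 5.10, 6.40 and 5.51 in PCN. Its groups overlapped only through vehicle replicate 5, and the log2 fold change was -0.47 ± 0.22 (SE, 95% interval -0.97 to 0.02, adjusted p = 0.506 by edgeR). Wnt5b (0.59), Wnt5a (0.34) and Wnt2b (0.23), stromal Wnt ligands, had positive values. Of 15 receptors and secretion genes 6 had a positive fold change (median -0.01), among them the co-receptors Lrp5 (0.19) and Ror2 (0.28), whereas Porcn, which lipidates Wnt proteins, had -0.38. In this list 2 genes, Lrp5 among them, were higher in PCN without overlap, and 1, Porcn, was lower. Porcn measured 9.05, 8.94 and 6.94 CPM in vehicle and 6.02, 6.60 and 6.57 in PCN (adjusted p = 0.532 by edgeR). Ctnnb1, which encodes β-catenin, was at 736 ± 28.5 and 772 ± 53.3 CPM. The interval of its log2 fold change, -0.14 to 0.28, and those of Apc (-0.41 to 0.16) and Tcf7l2 (-0.22 to 0.22) included 0. Of 12 secreted Wnt and BMP inhibitors 10 had a positive fold change (median 0.24), with Sfrp4 at 0.94 and Grem1 at 0.48, again with no adjusted call. Before adjustment, Wnt5b, Lrp5 and Sfrp4 had an edgeR p under 0.05, as did 0 of the 18 genes of the β-catenin complex and TCF factors.

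**Figure D4:**
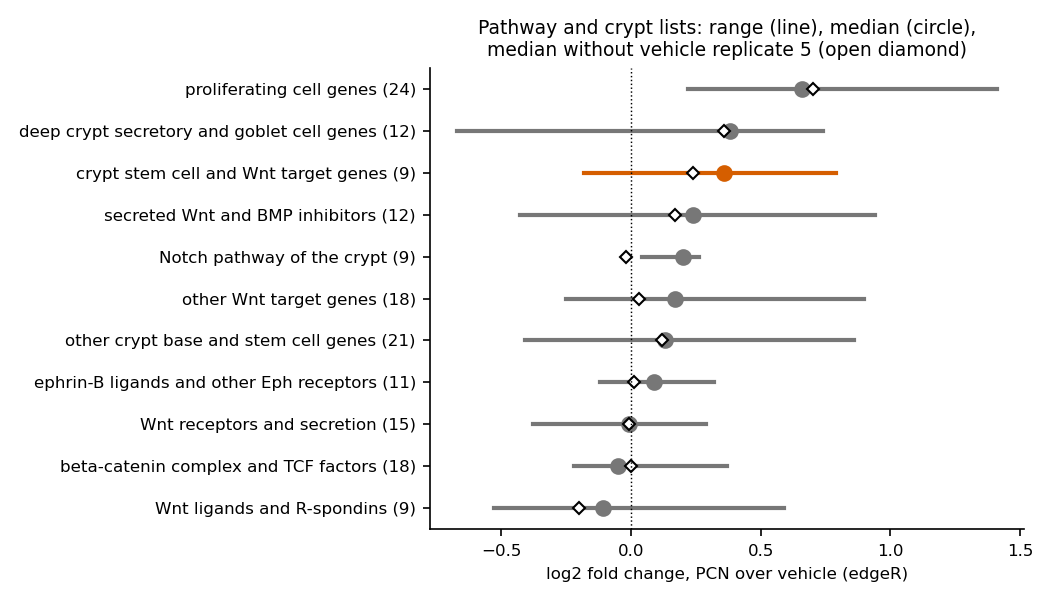
Log2 fold change of PCN over vehicle from edgeR (horizontal axis) for each list of pathway and crypt genes (number tested in brackets): the line spans the lowest to the highest gene, the circle is the median and the open diamond the median without vehicle replicate 5. The median is 0.66 for proliferating cell genes, 0.36 for the crypt stem cell and Wnt target genes (orange) and -0.11 for Wnt ligands and R-spondins.

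Other crypt genes gave 2 calls, by DESeq2 only. Of 21 other crypt base and stem cell genes tested, 15 had a positive fold change (median 0.13). Before adjustment, 4 were higher with an edgeR p under 0.05 and 1 was lower. The 2 calls were Prom1, a membrane glycoprotein of crypt cells, and Cdca7, a chromatin factor of dividing cells. Prom1 averaged 421 ± 23.4 CPM in vehicle and 572 ± 54.7 in PCN (log2 fold change 0.44, adjusted p = 0.0225 by DESeq2). Cdca7 averaged 30.9 ± 8.43 and 50.6 ± 2.46 CPM (0.71, adjusted p = 0.0403 by DESeq2). Each of these calls held in 2 of the 6 fits that left out a library, and edgeR made neither (adjusted p = 0.258 and 0.318). In the Notch pathway, which balances stem and secretory fates, 9 of 9 tested genes had a positive fold change, with a median of 0.20 that was -0.02 without vehicle replicate 5. Hes1, its target, had 0.21 and Atoh1, the secretory master factor, 0.26.

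Secretory cells of the deep crypt and goblet cells share the crypt with the stem cells. Of their 12 genes 11 had a positive fold change (median 0.38), and DESeq2 called Agr2 (0.73, adjusted p = 0.0306) and Muc2 (0.51, adjusted p = 0.0305), which serve mucin folding and mucus. Both calls held in 2 of the 6 fits without a library. Reg4, the marker of deep crypt secretory cells, ranged from 17.6 to 129 CPM in vehicle and from 9.78 to 74.8 in PCN, too wide for a direction.

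Proliferating cell genes had the highest median of the lists of crypt and pathway genes with all 6 libraries, and whether they differed more than the members was not tested. All 24 had a positive fold change, with a median of 0.66. Leaving out PCN replicate 6 brought it to 0.44, beside 0.40 for the members, and leaving out PCN replicate 5 to 0.88, beside 0.39. DESeq2 called 10 of them while edgeR called 0, with 14 at an unadjusted p under 0.05. The 10 were Mcm2, Mcm3, Mcm4, Mcm5, Mcm6, Cdc6, Cdt1, Hells, Rrm2 and Uhrf1, which, Rrm2 aside, license origins, copy DNA or maintain its methylation. Mcm3 measured 14.3, 14.4 and 12.0 CPM in vehicle and 31.8, 26.1 and 36.0 in PCN, a log2 fold change of 1.21 ± 0.15 (SE) with an adjusted p of 4.03e-08 by DESeq2 and 0.0693 by edgeR. DESeq2 kept its calls for Mcm2, Mcm3, Mcm6, Cdc6, Hells and Uhrf1 with each library left out in turn. The general division marker Mki67 overlapped between groups (57.1 to 94.4 CPM in vehicle, 54.8 to 136 in PCN, log2 fold change 0.36). Unlike the members (5 of 9 tested) and the Notch and other Wnt target lists (8 of 9 and 13 of 18), these genes were rarely lowest in vehicle replicate 5. That was the case for 1 of the 24, Cdc6 (88.1% of the mean of the other vehicle libraries). Uhrf1 was at 93.1% there, Mcm3 at 109% and Mki67 at 125%. Counts of Mcm3 per count of Lgr5 were 0.946, 3.03 and 1.10 in vehicle and 2.54, 2.07 and 2.51 in PCN, so that vehicle replicate 5 lay above the PCN libraries and the other vehicle libraries lay below (exact permutation p = 0.4).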

How the data were processed

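RNA from mouse colon was compared between 3 vehicle and 3 PCN libraries, grouped by the sample labels. The deposited counts are whole reads per gene that the authors made with STAR for mapping and HTSeq for counting. The methods name a pig assembly, the labels mm10, and the gene identifiers are those of mouse. The deposited FPKM values are the authors' counts per gene length and library size. Columns of the authors' own log2 fold changes and p-values were not used.

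Counts were tested with edgeR 4.0.16 in R 4.3.3 (TMM, filterByExpr at minimum count 10 and minimum total 15, quasi-likelihood test, Benjamini-Hochberg over 16586 genes, threshold 0.05). The common biological coefficient of variation was 0.199. Single values were compared by 2-sided exact permutation over the 20 assignments of libraries. Levels and their order use FPKM. Alternatives were DESeq2 1.42.0, RLE scaling, no filter, a replicate block, limma 3.58.1 on log2(FPKM + 1) and log2(FPKM + 0.1), a posterior Hox covariate, scaling to epithelial genes, and each library left out. DESeq2 with each library left out was added after seeing the data. The fits were tested on simulated data.

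No 2 libraries agreed within sampling noise. Coordinates come from GENCODE M21 (GRCm38) by Ensembl identifier, since the deposited positions are of another build. All 10 members were named. In each list of the pathway and the crypt, genes with an adjusted p under 0.05 by either tool or else the 3 with the smallest p were named, with a fixed set of pathway genes. The result of 1 gene is not given here. The members and lists were chosen with earlier results of these data known.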

Additional observations from a re-analysis of the deposited data

How the results depend on the processing

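For the 9 members tested, 170 of 180 log2 fold changes (9 genes under 20 alternatives) kept their sign and their side of the adjusted threshold, 2 passed it and 8, all of Znrf3, changed sign. The number of members called was 0 except in DESeq2 without vehicle replicate 3, which called 2, Ephb2 and Ephb3. That fit called 317 of all genes higher and 89 lower. The range for the members with 1 library left out was therefore 0 to 2. Fitted to the replicate number as a block, the members' median was 0.52, with 0 called. The numbers 5 and 6 occur in both groups, but the labels do not pair them and deviations of same-numbered libraries correlated at -0.16 and -0.11 across genes, so the block is no paired design. Znrf3 had -0.054 with the replicate block, -0.00093 and -0.000698 with limma at pseudocounts 1 and 0.1, and -0.015 with epithelial scaling.

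Over all genes, where edgeR called 5 higher and 1 lower, DESeq2 called 171 and 43, edgeR without the filter 25 and 2, with the replicate block 64 and 10, with the Hox covariate 3 and 2, with epithelial scaling 29 and 4, and limma on log2(FPKM + 0.1) 3 higher. With 1 library left out, the calls ran from 0 to 317 higher and from 0 to 89 lower over both tools, the largest numbers being those of DESeq2 without vehicle replicate 3. Scaling moved the median log2 fold change of all genes to -0.04 at most.

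Signs changed in 8 of 48 other named genes. Efnb1 had -0.010 with DESeq2 and with RLE scaling, -0.011 with no filter, -0.030 and -0.031 with limma at pseudocounts 1 and 0.1, -0.00304 with the Hox covariate and -0.037 with epithelial scaling. Tcf7l2 had -0.013 with DESeq2 and with RLE scaling, -0.014 with no filter, -0.035 and -0.038 with limma at pseudocounts 1 and 0.1, and -0.039 with epithelial scaling. With the replicate block Reg4 had 0.19 and Wnt2b -0.040. With 1 library left out, the ranges were -0.052 to 0.089 for Znrf3, -0.21 to 0.012 for Apc, -0.066 to 0.62 for Atoh1, -0.11 to 0.13 for Efnb1, -0.21 to 0.12 for Lgr4, -0.044 to 0.16 for Nkd1, -1.67 to 0.54 for Reg4 and -0.098 to 0.068 for Tcf7l2. In edgeR with 1 library left out, list medians ran from -0.28 to 0.09 for Wnt ligands and R-spondins, -0.06 to 0.02 for receptors, 0.14 to 0.42 for secreted inhibitors, 0.03 to 0.32 for other Wnt targets, 0.11 to 0.21 for other crypt base genes, 0.26 to 0.59 for secretory genes and 0.44 to 0.88 for proliferating cell genes. The causes were not tested. Depth limited Olfm4 and Notum, and intervals from counts cover counting error only.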
